A study of Drosophila melanogaster with 28 samples.

Results

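Poly(A)-binding protein (PABP) was immunoprecipitated from lysates of 0–1 hr Drosophila melanogaster embryos, and the RNA recovered with it was sequenced beside the RNA of the input lysate (RIP-seq). The embryos were of strain w1118, a white mutant commonly used as wild type, and were collected as pools between 0 and 1 hr of age. The precipitating reagent was a synthetic anti-PABP Fab fragment held on beads, and the lysates had been cleared by centrifugation, so that RNA in the pellet was not assayed. The comparison rests on 1 IP library and 1 input library. For comparison, the PABP pairs of w1118 embryos at 1–2 hr and of untransfected S2 cells (a cultured line of embryonic origin) were used. So were the ME31B pair of 0–1 hr embryos carrying eGFP-ME31B (precipitated with anti-GFP antibodies) and the input of 0–1 hr embryos carrying the png50 allele of the png gene. Each of these groups is 1 library too.

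PABP binding of a gene is defined here as the log2 of its FPKM (fragments per kilobase of transcript per 1 M mapped reads) in the IP over its FPKM in the input, with the value of the median gene subtracted. A binding value of 0 is therefore that of the median gene, and a value of 1 lies 2-fold above it. A gene was a member when it exceeded 0.5 FPKM in both libraries, which held for 6587 of the 16862 fly genes listed (39.1%). A further 403 genes exceeded 0.5 FPKM only in the IP and 95 only in the input. Before centring, the median gene had 2.49 times as many FPKM in the IP as in the input. The 20 members nearest above the minimum had a median binding of 0.01, with a range of -2.68 to 3.5. The 20 genes nearest below it had a median of 0.10, with a range of -1.43 to 2.90.

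PABP coats the poly(A) tails of cytoplasmic mRNAs, where it touches the translation initiation factor eIF4G and protects the tail. RNAs that are made without a poly(A) tail, such as the small nuclear and nucleolar RNAs and the replication-dependent histone mRNAs, lack this landing site. The embryo of the first hour is transcriptionally almost silent and lives on mRNAs that the mother placed in the egg, many of them stored in a repressed state, and lengthening or shortening of their tails is a known means of switching them on or off. ME31B, a DEAD-box helicase, is part of a repressor complex with Cup and Trailer Hitch on such maternal mRNAs. An IP from an unrelated antibody was not analysed here, so binding values rank genes against the median gene and do not separate bound from unbound RNA.

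The age and tissue labels were checked on fixed markers. All 6 maternal markers exceeded 0.5 FPKM in the 0–1 hr input, among them nos at 253 FPKM and osk at 122 FPKM. Of 22 genes first transcribed by the zygote, 6 exceeded 0.5 FPKM in that input with a summed level of 26.6 FPKM, against all 22 and 2043 FPKM in the 2–3 hr input. None of the 10 chorion and vitelline membrane genes listed, which mark follicle cells, was above 0 in the 0–1 hr input. All 5 hemocyte-type markers were below 0.5 FPKM in it. The estimated depth was 11.7 M reads for the input and 14.6 M for the IP, and the C. elegans RNA added to both as a spike made up 16.5% and 9.70% of their summed FPKM. The counting error of a binding value that follows from it had a median standard error of 0.10 (log2) over 6441 genes. Counting error is the only error that can be given, because with 1 library a side no difference has a replicate check. No p-values are therefore given.

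The input library stood apart from the other inputs of 0–1 hr embryos, which bears on the results that follow. The median member stood at 13.8 FPKM in w1118, 44 FPKM in eGFP-ME31B and 42.3 FPKM in png50 embryos. In the 1–2 hr w1118 input it stood at 4.10 FPKM. Across genes, input levels in w1118 and eGFP-ME31B had a Spearman correlation of 0.88 (6486 genes), those in w1118 and png50 of 0.85 (6483 genes), and those in eGFP-ME31B and png50 of 0.92 (6420 genes). Strain and table differ between these inputs, and the 3 tables were quantified separately, so the library, the strain and the table cannot be told apart. Binding was therefore also computed with each of the other inputs as divisor of the same IP. These alternative values share the IP and are not independent of the main ones.

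From the 5th to the 95th percentile, PABP binding of genes differed by 10.5-fold. The distribution was skewed to the low side. The lowest gene lay at -10.13 and the highest at 4.41, with the 1st and 99th percentiles at -3.44 and 2.42. At least 4-fold above the median gene were 116 genes (1.76% of those tested), and at least 4-fold below it were 329 (4.99%). The corresponding counts at 2-fold were 722 (11.0%) and 1176 (17.9%). The 6378 protein-coding members had a median of 0.01 and the 104 genes annotated as ncRNA a median of 0.37, whereas the 49 snoRNA genes had a median of -4.27 and the 13 snRNA genes one of -3.83.

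**Figure D1:**
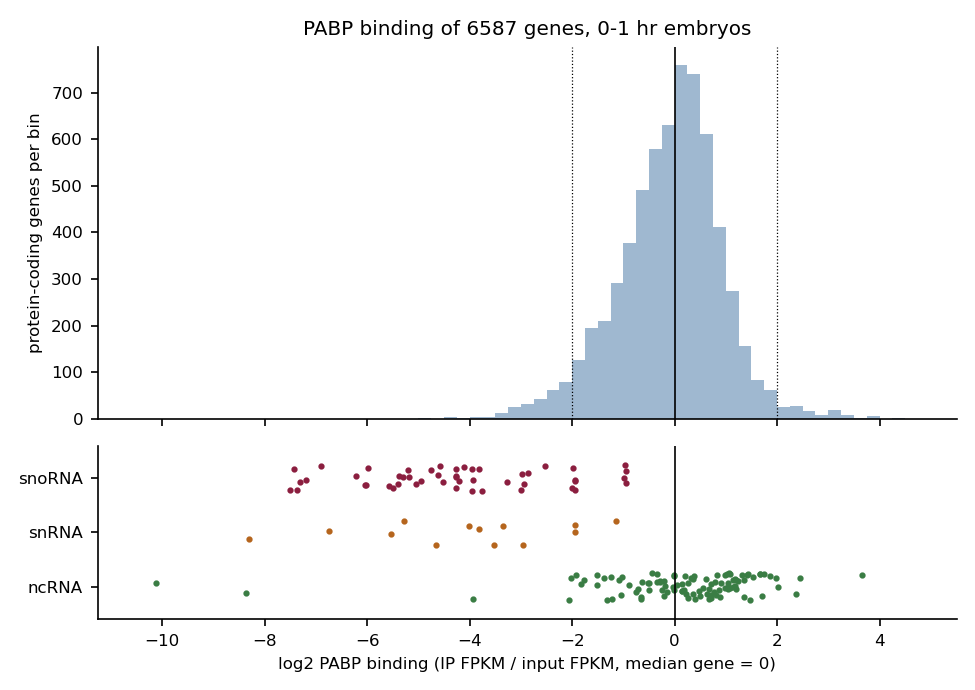
Distribution of log2 PABP binding in 0–1 hr embryos (x axis, median gene at 0). The histogram counts the 6378 protein-coding genes and the points below are single ncRNA, snRNA and snoRNA genes at random heights. Dotted lines mark 4-fold; the 49 genes annotated as snoRNA have a median of -4.27 and none of these 49 reaches the solid line at 0.

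The RNAs with the least PABP were abundant, stable RNAs without a poly(A) tail. The RNA of RNase P, which trims transfer RNA precursors, had 3849 FPKM in the input and 8.53 FPKM in the IP, a binding of -10.13. The RNA of RNase MRP, a relative of RNase P that cuts ribosomal RNA precursors, had 4052 FPKM in the input and 30.6 FPKM in the IP, a binding of -8.36. 7SK RNA (snRNA:7SK), which holds the elongation factor P-TEFb inactive, had 4511 and 35.3 FPKM, a binding of -8.31. These 3 abundant RNAs lay 318- to 1121-fold below the median gene. With the eGFP-ME31B or the png50 input as divisor, the median of the 3 was -8.79 or -8.22.

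Among the small RNAs that guide modification of ribosomal and spliceosomal RNA, 51 of 288 listed snoRNA and scaRNA genes were members. Of these, 41 lay at least 4-fold below the median gene, against 4.99% of all genes, and 1 lay above it. At 5 FPKM or more in the input, the lowest were snoRNA:Tudor-SN-a at -7.51 (230 FPKM in the input, 3.13 in the IP) and snoRNA:Psi28S-291 at -7.43 (477 and 6.85 FPKM). The highest were snoRNA:Psi18S-640b at -0.95 (14 and 18 FPKM) and snoRNA:Psi28S-612 at 0.05 (11.4 and 29.3 FPKM). Of the members, 44 overlapped a further gene of their strand, and the median annotated transcript was 141 nt, so FPKM of single snoRNAs are uncertain. The median was -4.27 with the own input and lay below 0 with each of the other inputs, at -3.29 with the eGFP-ME31B input and -4.04 with the png50 input.

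All 12 spliceosomal snRNA genes that were members lay at least 2-fold below the median gene, with a median of -3.68, and 9 of them at least 4-fold below it. The lowest was the U2 gene snRNA:U2:14B at -6.75 (117 FPKM in the input, 2.71 in the IP), followed by the U4 gene snRNA:U4:39B at -5.53 (1004 and 53.9 FPKM). The least low were the U1 gene snRNA:U1:95Cc at -1.95 and snRNA:LU at -1.14. snRNA genes exist in near-identical copies, and reads may be split among them.

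The hosts of snoRNAs lay higher than the snoRNAs. The Uhg genes are spliced transcripts whose introns release snoRNAs, and of 6 members 5 lay above the median gene, with a list median of 1.21. Uhg3 had 30.6 FPKM in the input and 194 FPKM in the IP (binding 1.35), and Uhg4 had 4.28 and 34.6 FPKM (binding 1.70). Uhg1 had 1.54 and 12.1 FPKM (binding 1.66), Uhg8 had 0.68 and 3.58 FPKM (binding 1.08) and Uhg2 had 8.02 and 36.5 FPKM (binding 0.87). Uhg7 was the exception at -1.52 (7.94 and 6.89 FPKM). All 6 overlap other genes on their strand, and the direction depended on the input: with the eGFP-ME31B input the median of the 5 members with a value was -0.10, and with the png50 input that of all 6 was 1.16.

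A single replication-dependent histone gene was a member of 72 listed. His2B:CG33868 (595 nt) had 160 FPKM in the input and 82.3 FPKM in the IP, a binding of -2.28, or 4.85-fold below the median gene. The histone genes of this cluster are repeated in near-identical copies, so how reads were shared among the copies is uncertain. The 6 histone variants whose mRNAs carry poly(A) tails had a median of 0.00, from -0.50 for cid, the centromeric histone H3, to 0.57 for His2Av.

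Among 100 long non-coding genes named CR that were members, 61 lay above the median gene, with a median of 0.37. Of them, 28 lay at least 2-fold above it, against 11.0% of all genes, and 15 at least 2-fold below it, against 17.9%. Their levels were low, with a median of 1.64 FPKM in the input, and with 1 FPKM added to both values their median was -0.53. At 10 FPKM or more in the input, the highest of all non-coding genes were Uhg3, CR30055 (12.3 and 69.7 FPKM, binding 1.20), CR45126 (12.3 and 64 FPKM, binding 1.06) and CR43144 (11.5 and 41.9 FPKM, binding 0.55). At 5 FPKM or more, CR43685 reached 1.98 and CR42254 1.53, and CR40502 and CR40640 were lowest at -4.75 and -4.64. CR40502 and CR40640 were listed by name only: neither was matched to the annotation, so their gene class is not known here. Both stood at 0 FPKM in the eGFP-ME31B and png50 inputs and have no value with them.

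**Figure D2:**
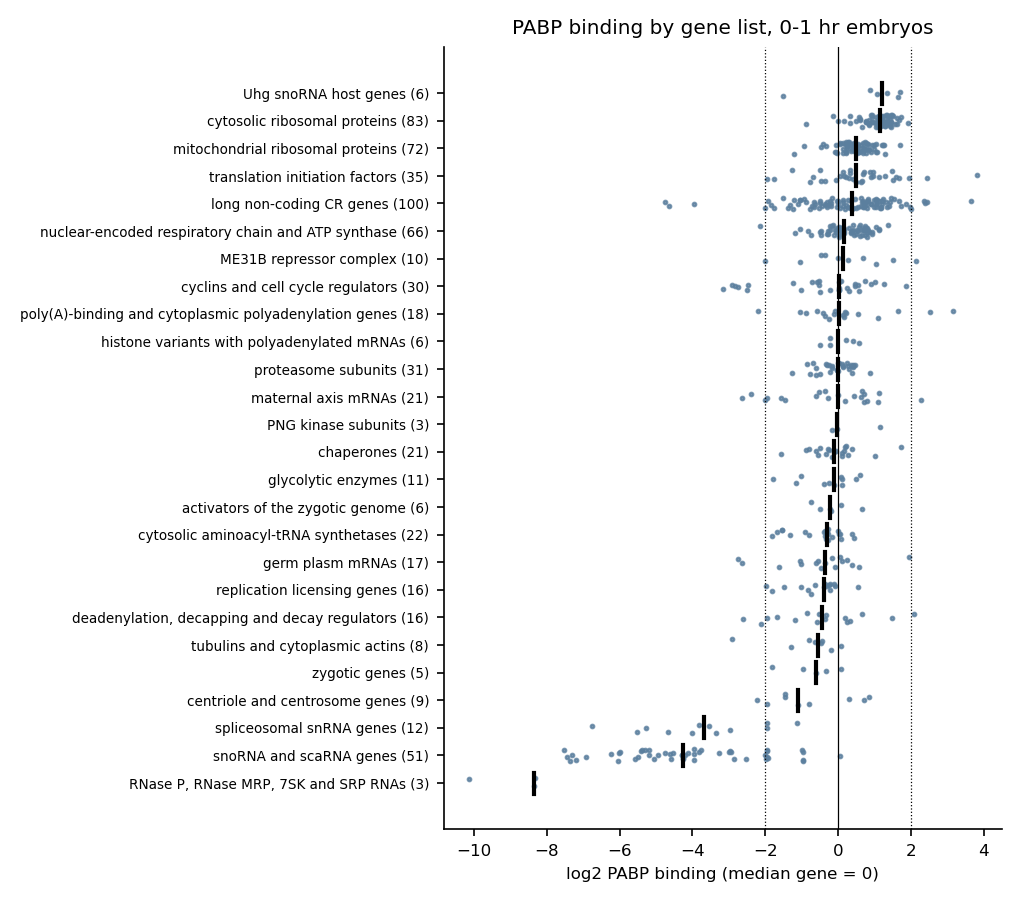
Log2 PABP binding (x axis, median gene at 0) of the members of each gene list with 3 or more members, 1 point per gene at a random height. Black bars are list medians and numbers in brackets are members. Cytosolic ribosomal protein genes sit at a median of 1.15, and the lists of RNAs without a poly(A) tail sit between -3.68 and -8.36.

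Of protein-coding genes at 10 FPKM or more in the input, the 10 with the most PABP lay 5.11- to 11.2-fold above the median gene. CG6770 had 86.2 FPKM in the input and 2393 FPKM in the IP (binding 3.48), on chromosome 2L at 12045343 to 12046118 of dm6. Next were ctp, a dynein light chain (10.8 and 275 FPKM, binding 3.35), and CkIIalpha, the catalytic subunit of casein kinase II (23.1 and 518 FPKM, binding 3.17). Arl4, an Arf-like GTPase, followed (13.8 and 269.6 FPKM, binding 2.97). The others were rdx, an adaptor of a Cullin 3 ubiquitin ligase, at 2.77, stai, the microtubule regulator stathmin, at 2.76, and akirin, a nuclear cofactor of immune gene transcription, at 2.68. Arf51F (the GTPase Arf6) stood at 2.55, the zinc-finger protein gene CG3800 (CNBP) at 2.43 and CG8507 at 2.35. Their counting standard errors were 0.05 to 0.12.

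The high end depended on the input. For each of these 10 genes the other inputs of 0–1 hr embryos exceeded the own input by more than they did for the median member. ctp stood at 10.8 FPKM in w1118, 374 FPKM in eGFP-ME31B and 263 FPKM in png50 embryos. CkIIalpha had 23.1, 728 and 602 FPKM in the same 3 inputs. Divided by the eGFP-ME31B input, ctp lay at -0.02, CkIIalpha at -0.06 and rdx at -0.13. Divided by the png50 input, they lay at 0.36, 0.07 and 0.28. CG6770 stayed above 2-fold with both, at 1.21 and 1.15.

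The same held for the 116 genes at least 4-fold above the median gene. Their median input level was 1.81 FPKM in w1118 embryos of 0–1 hr and 1.68 FPKM in those of 1–2 hr. It was 40.1 FPKM in eGFP-ME31B and 45.6 FPKM in png50 embryos, and the median IP level was 33.1 FPKM. In the png50 input all 116 had more FPKM than in their own input, as did 6337 of all members. Of the 116, 63 were below 2 FPKM in their own input, as were 568 of all 6587 members. The 116 were picked by a ratio with that input as divisor. At least 2-fold above the median gene stayed 29 of 114 with the eGFP-ME31B input and 25 of 116 with the png50 input. With the 1–2 hr w1118 input 68 of 110 did. With all 3 inputs of 0–1 hr embryos, 4 genes lay at least 4-fold above the median gene: CG14074, bc10, bol (an RNA-binding protein of the DAZ family) and the antisense RNA CR43460. Their binding with the own input was 2.99, 2.53, 2.34 and 2.01 in that order. Their levels in that input were low, at 1.27, 5.80, 0.54 and 1.13 FPKM. The counting standard errors were 0.39, 0.17, 0.24 and 0.56. With the 1–2 hr w1118 input their binding was 2.17, 1.44, 0.68 and 0.14. These 4 were singled out after their values were seen. At 2-fold, 223 genes lay above the median gene with all 3 inputs, against 722 with the own input alone.

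The low end depended on it less. Of the 329 genes at least 4-fold below the median gene, 157 remained so with all 3 inputs, and at 2-fold 706 of 1176 did. The 10 lowest protein-coding genes at 10 FPKM or more in the input lay between -4.98 and -3.44. Spt6, a histone chaperone of transcribing RNA polymerase II, had 21.1 FPKM in the input and 1.66 FPKM in the IP, 31.6-fold below the median gene. It lay at -4.98 with the own input, -4.45 when divided by eGFP-ME31B and -5.51 when divided by png50 input. polybromo, a subunit of a chromatin remodelling complex, had 15.0 and 1.65 FPKM (binding -4.49), and Prp8, a core protein of the spliceosome, had 12.2 and 1.5 FPKM (binding -4.34). MEP-1 and Mi-2, which act together in a nucleosome remodelling complex, stood at -4.33 and -4.17. Below -3.4 were also the dynein heavy chain gene Dhc64C (-3.87), the promoter-binding factor M1BP (-3.85), CG1677 (-3.72), woc (-3.47) and the nucleosome remodeller Iswi (-3.44). Divided by the eGFP-ME31B or the png50 input, all 10 stayed below 0, Dhc64C at -1.76 and -2.80 being the nearest to it.

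**Figure D3:**
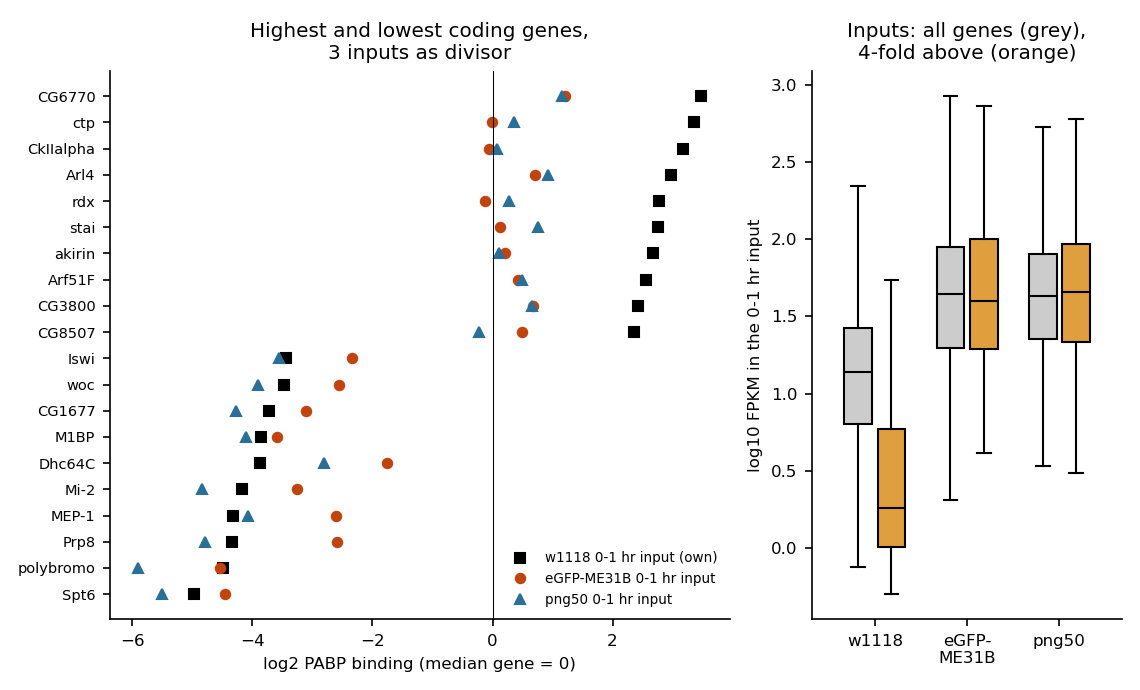
Left, log2 PABP binding (x axis, median gene at 0) of the 10 highest and 10 lowest protein-coding genes with the w1118, eGFP-ME31B or png50 input of 0–1 hr embryos as divisor. Right, log10 FPKM in those inputs for all members (grey) and the 116 genes at least 4-fold above the median gene (orange), as boxes with median, quartiles and whiskers to 1.5 times the box. The high genes lie nearer to 0 with the other inputs and the low genes remain at -1.76 or less.

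Of 83 cytosolic ribosomal protein genes, 81 lay above the median gene, with a median binding of 1.15 and quartiles of 0.94 and 1.32. At least 2-fold above it were 60 (72.3%, against 11.0% of all genes) and none reached 4-fold. Their median level was 659 FPKM in the input and 3778 FPKM in the IP. The highest were RpL23A (91.6 and 861 FPKM, binding 1.92) and RpL22 (141 and 1169 FPKM, binding 1.74). The exceptions were the paralogs RpS5b (383 and 518 FPKM, binding -0.88) and RpS5a (301 and 677 FPKM, binding -0.14), between which reads may be shared. With the eGFP-ME31B and the png50 input the list median was 1.24 and 1.5, and 80 and 81 genes lay above the median gene.

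Translation initiation factor genes had a median of 0.50, with 26 of 35 above the median gene and 9 at least 2-fold above it (25.7%, against 11.0% of all genes). At 5 FPKM or more in the input, the highest were eIF-1A (66.8 and 643 FPKM, binding 1.95) and eIF5 (16.0 and 127 FPKM, binding 1.67). eIF5, the GTPase activator of eIF2, lay at -1.11 and -0.88 with the eGFP-ME31B and png50 inputs. The lowest were eIF5B, which joins the ribosomal subunits, at -1.94 and eIF4AIII, a subunit of the exon junction complex, at -1.77. The cytosolic aminoacyl-tRNA synthetase genes, also of the translation machinery, lay lower: 16 of 22 were not above the median gene. Their list median was -0.31, with a range of -1.80 for Aats-glupro to 0.44 for Aats-tyr. This depended on the input. With the eGFP-ME31B, png50 and 1–2 hr inputs the median was -0.20, 0.03 and 0.01, and 9, 11 and 12 of 22 lay above the median gene.

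Mitochondrial ribosomal protein genes stood between these groups at a median of 0.51, with 63 of 72 above the median gene and 8 (11.1%) at least 2-fold above it, a share like that of all genes. mRpS5 was highest at 1.70 and mRpL28 lowest at -1.21. The nuclear-encoded genes of the respiratory chain and ATP synthase had a median of 0.17, with COX6B at 1.37 and ATPsynE at 1.14 highest and ND-51 at -2.15 lowest. With the own input the 31 proteasome subunit genes were spread evenly around the median gene (15 above, median 0.00), from Rpn1 at -1.26 to Rpn6 at 0.87. Their median was 0.05, 0.40 and -0.06 with the eGFP-ME31B, png50 and 1–2 hr inputs, with 16, 26 and 13 above the median gene. The 11 glycolytic enzyme genes had a median of -0.11, from Pgi at -1.78 to Hex-A at 0.60. With the eGFP-ME31B, png50 and 1–2 hr inputs that median was -0.04, 0.46 and 0.35. Among 21 chaperone genes (median -0.10), the small heat shock protein genes Hsp27 (1.74) and Hsp22 (1.02) were highest and the mitochondrial chaperonin Hsp60 (-1.55) lowest.

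Cyclin and cell cycle genes, which drive the rapid nuclear divisions of the embryo, had a median of 0.03 but a wide spread, with 6 of 30 at least 4-fold below the median gene, against 4.99% of all genes. All 3 mitotic cyclins were among them. CycB had 285 FPKM in the input and 105 FPKM in the IP, a binding of -2.75. CycA had 182 and 63.6 FPKM, a binding of -2.83. CycB3 had 25.6 and 7.16 FPKM, a binding of -3.15. CycA and CycB were named after their values were seen. Both stayed at least 4-fold low with the other inputs (CycA at -3.12 and -4.03, CycB at -2.30 and -3.46), whereas CycB3 moved to -1.46 with the eGFP-ME31B input. fzy, the activator of the anaphase-promoting complex that destroys these cyclins, lay at -2.91 (26.2 and 8.65 FPKM). At the other end were Cks30A, a small Cdk subunit, at 1.86 (17.9 and 161 FPKM) and CycG at 1.26. With the eGFP-ME31B and png50 inputs Cks30A lay at 1.5 and 2.19, and CycG at -0.26 and -0.29. Of the 3 PNG kinase subunits, which act at egg activation on cyclin mRNA translation, gnu lay at 1.17 (95.3 and 532 FPKM), plu at -0.03 (74.1 and 180 FPKM) and png at -0.16 (58.7 and 130 FPKM). Their median was -0.03, and 0.57, 1.03 and 0.94 with the eGFP-ME31B, png50 and 1–2 hr inputs. With those inputs 2, 3 and 2 of the 3 lay above the median gene, against 1 with the own input. The 9 centriole and centrosome genes had a median of -1.09 (-0.55 and -0.53 with the eGFP-ME31B and png50 inputs, -0.27 among genes at 5 FPKM or more in both libraries). They went from SAK and cnn at -1.46 among those with at least 5 FPKM to ana2 at 0.84. The 16 replication licensing genes had a median of -0.38, with 15 not above the median gene. With the eGFP-ME31B, png50 and 1–2 hr inputs their median was -0.17, -0.12 and -0.28, and 6, 7 and 3 of the 16 lay above the median gene. Among 8 tubulin and actin genes (median -0.55), gammaTub23C lay at -2.90 and alphaTub84D at 0.09, and the list median turned to 0.04 with the png50 input.

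Among 21 maternal mRNAs that pattern the embryo, 2 lay at least 4-fold below the median gene. At least 2-fold below it were 6 (28.6%, against 17.9% of all genes) and at least 2-fold above it 3 (14.3%, against 11.0%). nos, whose protein specifies the posterior, had 253 FPKM in the input and 102 FPKM in the IP, a binding of -2.62, on chromosome 3R at 19157238 to 19160202. It lay at -2.80 and -2.54 with the eGFP-ME31B and png50 inputs. fs(1)N, a gene of the terminal system, lay at -2.40 (44.8 and 21.2 FPKM). The highest at 5 FPKM or more, both less than 2-fold above the median gene, were cad and stau. cad, a posterior transcription factor gene, lay at 0.78 (17.0 and 72.6 FPKM) and stau, an RNA-localizing protein gene, at 0.65. The median over the 21 genes was 0.00, and -0.20 and -1.05 with the eGFP-ME31B and png50 inputs. Of 17 germ plasm mRNAs the median was -0.35, with CycB and nos lowest and pgc, a repressor of transcription in pole cells, at 0.57 (492 and 1814 FPKM). That median was -0.57 and -1.01 with the eGFP-ME31B and png50 inputs, with 4 and 2 of the 17 above the median gene, against 6 with the own input. The 6 activators of the zygotic genome lay between -0.74 for vfl (zld) and 0.65 for da. With the eGFP-ME31B and png50 inputs none of the 6 was above the median gene, da being at -0.39 and -0.27.

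Genes for the proteins that repress or process these mRNAs were spread as widely. me31B itself had 328 FPKM in the input and 3568 FPKM in the IP, 4.38-fold above the median gene (binding 2.13). With the eGFP-ME31B and png50 inputs it lay at 1.48 and 0.52. Within the 10 genes of the ME31B repressor complex list (median 0.13), eIF-4E, the cap-binding protein, lay at 1.5, exu at -1.99 and Patr-1 at -1.05. pAbp, which encodes PABP, had 51.6 and 404 FPKM (binding 1.66), and wisp, the cytoplasmic poly(A) polymerase, had 22.3 and 119 FPKM (binding 1.10). bsf, at -2.20, was lowest of the 18 poly(A)-binding and polyadenylation genes, whose median was 0.03. The value of pAbp changed sign with the eGFP-ME31B and png50 inputs, to -0.34 and -0.15, but was 0.67 with the 1–2 hr w1118 input. Among 16 deadenylation, decapping and decay genes (median -0.44), smg, an RNA-binding protein that recruits the deadenylase, lay at -2.61 (24.1 and 9.82 FPKM) and twin, the deadenylase CCR4, at -2.12. Not3 of the same deadenylase complex lay at 2.09. It lay at -0.09, 0.09 and 1.10 with the eGFP-ME31B, png50 and 1–2 hr inputs. smg stayed low with each of these inputs, at -3.47, -5.34 and -3.81 in that order.

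Across protein-coding genes, binding was lower for longer coding sequences. The Spearman correlation with annotated coding length was -0.52 and with transcript length -0.41 (6378 genes), against -0.05 with 3′ UTR length (6368 genes). Coding and transcript length go together, and after subtraction of the median binding of each decile of transcript length the correlation with coding length was -0.18. Genes are not independent replicates, and FPKM itself contains length. In the decile with the shortest coding sequences (median 354 nt) the median binding was 0.63, and in the decile with the longest (median 4652 nt) it was -1.17. Of 638 genes in each, 3 of the shortest and 125 of the longest (19.6%) lay at least 4-fold below the median gene. The share was 4.99% over all genes. The longest decile held about as many genes at least 4-fold above the median (10) as the shortest (13). In the deciles of 3′ UTR length the medians stayed between -0.13 and 0.16. The longest 3′ UTR decile held 33 genes at least 4-fold above the median gene, against 10 in the shortest. From the shortest to the longest 3′ UTR decile, the medians of the other pairs fell. They went from 0.25 to -0.33 for PABP at 1–2 hr, from 0.39 to -0.43 for PABP in S2 cells and from 0.29 to -0.55 for ME31B. Lower values at longer coding length were also present in the other pairs, from 0.89 to -1.24 for PABP at 1–2 hr, from 1.14 to -0.85 for PABP in S2 cells and from 0.58 to -1.51 for ME31B.

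**Figure D4:**
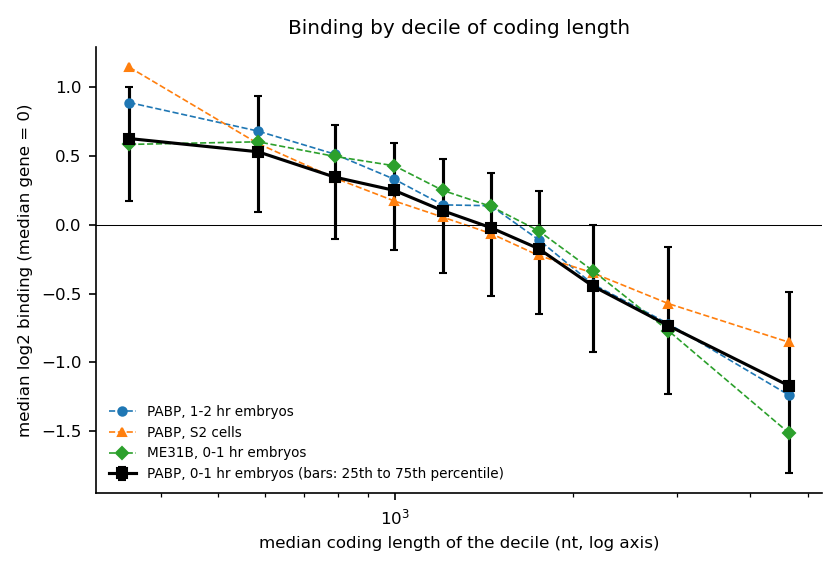
Median log2 binding (y axis, median gene at 0) in 10 equal groups of protein-coding genes by coding length (x axis, log scale, nt). Squares are PABP in 0–1 hr embryos with bars from the 25th to the 75th percentile, and the other symbols are medians of the other 3 pairs. The squares go from 0.63 in the shortest to -1.17 in the longest group.

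The genes of chromosome 4, the small heterochromatin-rich autosome, stood apart with the own input. This grouping was chosen after the values were seen. Its 43 protein-coding members had a median binding of 1.13, with 37 above the median gene and 14 (32.6%) at least 4-fold above it, against 1.76% of all genes. The medians of the other chromosome arms lay between -0.16 (X) and 0.07 (3L). The 43 genes had a median input level of 4.45 FPKM in w1118, 85.1 FPKM in eGFP-ME31B and 85 FPKM in png50 embryos. With the eGFP-ME31B and png50 inputs their median binding was -0.63 and -0.75, of opposite sign. With the 1–2 hr w1118 input as divisor it was 0.51, of the same sign. In the other pairs the median of these genes was 0.44 for PABP at 1–2 hr, -0.71 for PABP in S2 cells and -0.62 for ME31B. eIF4G, the scaffold of the cap-binding complex, had 0.98 FPKM in its own input and 34 FPKM in the IP. It had 92 and 109 FPKM in the eGFP-ME31B and png50 inputs. Its binding was 3.81 with the own input and -1.01 and -1.39 with the eGFP-ME31B and png50 inputs. 4E-T went from 3.93 to -0.84 and -0.98 and Mitf from 3.37 to -0.36 and -0.53. These 3 genes were named after their values were seen. Base composition was not analysed here.

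PABP binding at 0–1 hr was compared with the next time point and with cultured cells, each with its own input. The Spearman correlation across genes was 0.75 with 1–2 hr (6224 genes) and 0.38 with S2 cells (6189 genes). The low end was shared more than the high end at 1–2 hr. Of genes with values at both ages, 184 were at least 4-fold below the median gene at both. These were 59.9% of the 307 at 0–1 hr and 58.4% of the 315 at 1–2 hr. At least 4-fold above at both were 11, 10.0% of the 110 at 0–1 hr and 10.7% of the 103 at 1–2 hr. In S2 cells 22 genes were at least 4-fold below in common, 7.17% of those at 0–1 hr but 73.3% of the 30 in S2 cells. At least 4-fold above in common were 4, 3.70% of the 108 at 0–1 hr and 2.26% of the 177 in S2 cells. Over all genes tested at 0–1 hr, 1.76% were at least 4-fold above and 4.99% at least 4-fold below.

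Cytosolic ribosomal protein genes had more PABP at 1–2 hr than at 0–1 hr, with a median difference of 1.07 (81 of 83 higher) and medians of 2.13 at 1–2 hr and 2.53 in S2 cells. Over all 1224 protein-coding genes with at least 10 FPKM in both inputs the median difference was 0.21. Among those genes large differences upward were those of GC1, a mitochondrial glutamate carrier (-3.11 to -0.52), CG9034 (-0.79 to 1.72), RpS5b (-0.88 to 1.62) and RpS21 (0.76 to 3.02). For RpS21 the input went from 420 to 124 FPKM and the IP from 1764 to 6528 FPKM. The largest downward were CG6597 (1.29 to -0.93), Drice, an effector caspase (0.07 to -1.76), TfIIB, a general transcription factor (0.26 to -1.41), CG9253 (0.46 to -1.10) and ctp (3.35 to 1.80). Of the 6 activators of the zygotic genome, 5 were lower at 1–2 hr, the list median being -0.21 at 0–1 hr and -1.56 at 1–2 hr. The mitotic cyclins stayed low, at -1.74 for CycB, -1.82 for CycA and -2.03 for CycB3. No test of these differences was possible.

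PABP and ME31B binding at 0–1 hr had a Spearman correlation of 0.58 across 6455 genes, from lysates of different strains and tables quantified separately. Genes at least 4-fold below the median gene overlapped, with 199 in common, 64% of the 311 for PABP and 48% of the 415 for ME31B. Of genes at least 4-fold above, 1 was shared, of 114 for PABP and only 14 for ME31B (0.88% and 7.14%). Over all genes tested for PABP, 1.76% were at least 4-fold above and 4.99% at least 4-fold below. Over 6272 protein-coding genes, PABP exceeded ME31B binding by at least 4-fold for 217 (3.46%) and was at least 4-fold lower for 45 (0.717%), and it was higher at all for 48.2%. The balance of these counts depended on the input: they were 128 and 106 with the png50 input and 71 and 80 with the 1–2 hr input as divisor of the PABP IP. The mitotic cyclins and smg were low in both, with ME31B values of -3.16 for CycA, -2.85 for CycB and -3.53 for smg.

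Cytosolic ribosomal protein genes had the largest median difference between the pairs among the protein-coding lists with 10 or more members. PABP exceeded ME31B for 79 of 83, by a median of 1.45, their ME31B median being -0.39. Translation initiation factor genes followed, with 26 of 35 higher for PABP and a median difference of 0.76. For mitochondrial ribosomal protein genes 12 of 72 were higher for PABP, with a median difference of -0.39. For snoRNA and scaRNA genes 4 of 43 were higher for PABP (median difference -2.62).

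Among protein-coding genes with at least 10 FPKM in both inputs, those with the most PABP over ME31B were Oda, the antizyme of polyamine metabolism (PABP -0.50, ME31B -4.29), ctp (3.35 and -0.17, but a PABP value of -0.02 with the eGFP-ME31B input), eIF-5A, a translation factor (1.59 and -1.90), His4r, a polyadenylated histone H4 gene (-0.22 and -3.40), and RpLP1, a protein of the ribosomal stalk (1.12 and -2.05). eIF-5A had 879 FPKM in its PABP input and 6566 FPKM in the IP, against 4319 and 1276 FPKM in the ME31B pair. Those with the least were His2B:CG33868 (-2.28 and 1.94), CG31075 (-2.33 and 0.24), the deacetylase gene Sirt2 (-1.83 and 0.72), CG33228 (-0.28 and 2.22) and the peptidase gene DppIII (-2.30 and 0.13). With the eGFP-ME31B, png50 and 1–2 hr inputs the PABP value of CG33228 was 1.01, 0.46 and 0.14. That of CG31075 was -1.07, -1.07 and 0.02. DppIII lay at -1.35, -1.99 and -1.02, and His2B:CG33868 at -0.86, -2.25 and -2.99. Sirt2 lay at -1.17 with the eGFP-ME31B and -1.16 with the 1–2 hr input. His2B:CG33868 had 160 and 82.3 FPKM in the PABP pair and 200.4 and 845 FPKM in the ME31B pair. Oda overlaps other genes on its strand. The value of nos differed too, at -2.62 for PABP and -0.32 for ME31B.

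**Figure D5:**
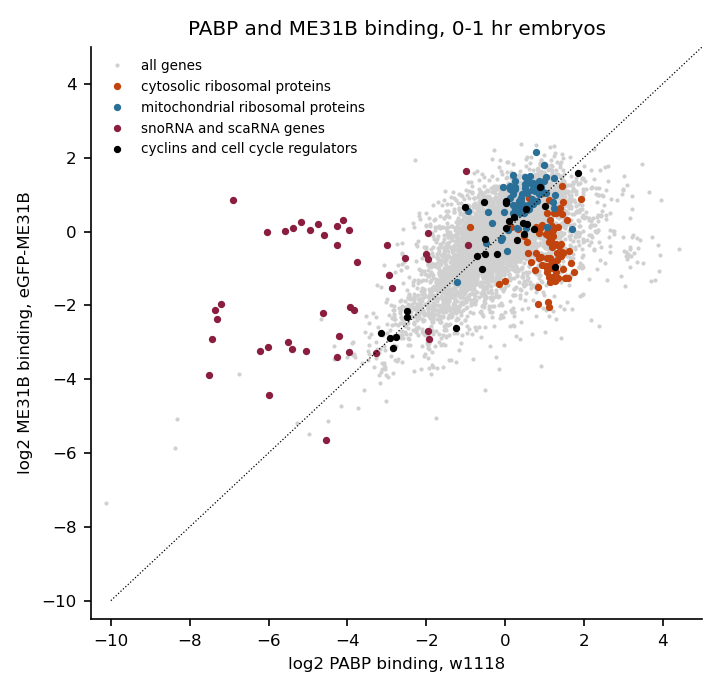
Log2 PABP binding in w1118 embryos (x axis) against log2 ME31B binding in eGFP-ME31B embryos (y axis), both at 0–1 hr with the median gene at 0, 1 point per gene. Cytosolic ribosomal protein genes lie below the dotted line of equal values (79 of 83), and most snoRNA and scaRNA genes lie above it.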

How the data were processed

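RIP-seq libraries of 0–1 hr w1118 embryos were analysed from tables of FPKM deposited by the authors, who removed ribosomal RNA, prepared stranded libraries, trimmed reads, aligned them with STAR (2.5.2a) to the fly (dm6) and worm (ce10) genomes and computed FPKM with Cufflinks (2.2.1). Whether reads were assigned by strand is not given in the sources used here. The authors performed replicates of the experiment, and the tables used here hold 1 library per sample. The eGFP-ME31B and png50 libraries stand in tables of their own.

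Binding was log2(IP/input) of fly genes above 0.5 FPKM in both libraries, minus the median, with no pseudocount. The number of columns not matched to a sample was 0. Gene symbols were matched to the Ensembl annotation (release 115), 12786 by current symbol and 3929 by a synonym, with 147 unmatched. Depth was estimated from the FPKM steps of low genes. Counting errors were computed for transcripts of at least 400 nt and cover counting error only. The members and lists were chosen with earlier results of these data known. Named were the 10 highest and 10 lowest protein-coding and the 4 highest and 4 lowest non-coding genes (input at least 10 FPKM), the 2 highest and 2 lowest genes of each list (input at least 5 FPKM, whole lists of up to 6), and the 5 largest differences each way from ME31B and from 1–2 hr. Further genes are marked as named after their values were seen, and 1 gene that the rule named is not reported here. Alternatives were other filters, a pseudocount, another centring, other inputs, a correction for transcript length and gene subsets. Sequence motifs were not analysed here. Python 3.11.15, pandas 2.3.3, NumPy 2.4.6, SciPy 1.17.1 and matplotlib 3.10.9 were used, and the procedure was tested on simulated data.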

Additional observations from a re-analysis of the deposited data

Results flagged for a closer look

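Several named genes lay at least 2-fold from the median gene in opposite directions in 0–1 hr PABP and in another pair. None of these differences was tested, since each pair is 1 library a side. Against ME31B at 0–1 hr, His2B:CG33868 lay at -2.28 for PABP and 1.94 for ME31B. RpL22 lay at 1.74 and -1.09, RpLP1 at 1.12 and -2.05, eIF-5A at 1.59 and -1.90, and eIF5 at 1.67 and -1.20. For eIF5 the opposite direction was seen with the own input: its PABP value was -1.11 with the eGFP-ME31B and -0.88 with the png50 input. Against PABP in S2 cells, CG8507 lay at 2.35 in embryos and -1.31 in S2 cells, and mRpS5 at 1.70 and -1.72. The non-coding genes Uhg7 and snRNA:LU lay at -1.52 and -1.14 in embryos and at 5.05 and 1.33 in S2 cells. In embryos CG8507 lay at -0.22 and Uhg7 at 1.47 with the png50 input, and snRNA:LU at 0.47 with the eGFP-ME31B input.

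Outside the genes with a binding value, 403 genes exceeded 0.5 FPKM in the IP and not in the input. Of these, 285 were protein-coding, 96 ncRNA and 20 small nuclear or nucleolar RNA genes, 117 were listed at 0 in the input, and their median IP level was 1.04 FPKM. In the png50 input 211 of them exceeded 0.5 FPKM. Of the 95 genes above 0.5 FPKM in the input only, 48 were small nuclear or nucleolar RNA genes and 27 were protein-coding. These genes have no binding value, so the list medians leave them out.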

How the results depend on the processing

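Over 20 summary results and 11 alternatives, 175 of 218 values moved by no more than 1.5-fold (for correlations, 0.1) and 43 moved further. Over 165 genes and lists, 1457 of 1720 values moved by no more than 1.5-fold, 239 moved further, and 24 values at least 2-fold from the median gene changed sign, all 24 with another input. Values less than 2-fold from the median gene changed sign in another 98 cases, 55 of them with another input, which are not listed. The cause of the changes was not tested. Leaving out a replicate was not possible with 1 library a side. No paired analysis was possible because no test compared replicates.

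With the png50 input the 5th to 95th percentile range was 17.7-fold. The count of 116 genes 4-fold above the median gene became 229 with 1 FPKM added, 246 above 0 FPKM, 32 at 5 FPKM or more, 189 with the eGFP-ME31B input and 44 with the 1–2 hr input. The 329 genes 4-fold below became 193 with 1 FPKM added, 169 at 5 FPKM or more, 610 with the png50 input and 498 with the 1–2 hr input. The 217 genes with 4-fold more PABP than ME31B became 368 above 0 FPKM, 102 at 5 FPKM or more, 142 without overlapping genes, 128 with the png50 input and 71 with the 1–2 hr input. The 45 with 4-fold less became 12 with 1 FPKM added and 151, 27, 106 and 80 above 0 FPKM, at 5 FPKM or more, with the png50 and with the 1–2 hr input. The correlation with coding length was -0.18 after correction for transcript length. That with ME31B was 0.69 with the png50 and 0.69 with the 1–2 hr input, that with 1–2 hr PABP 0.56 with the eGFP-ME31B input, and that with S2 PABP 0.20 both with 1 FPKM added and after the length correction.

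List medians were recomputed over all listed genes that passed each setting. With 1 FPKM added, the median was -0.53 for CR genes and -1.48 for histone genes. With the eGFP-ME31B input it was -0.86 for histone, -2.75 for snoRNA and -2.17 for snRNA genes. With the png50 input it was 0.79 for respiratory chain and -2.82 for snRNA genes, and with the 1–2 hr input -2.99, -5.49 and -5.02 for histone, snoRNA and snRNA genes. In transcripts of at least 200 nt it was -5.99 for snoRNA and -4.35 for snRNA genes. Of the remaining lists, 4 had a median above 0, against 13 with 1 FPKM added, 2 at 5 FPKM or more, 2 with the eGFP-ME31B input, 2 without overlapping genes and 8 with the png50 input.

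Among genes and lists at least 2-fold from the median gene, the sign changed with the eGFP-ME31B input for Aats-glupro (0.16), CG11486 (-0.050), CkIIalpha (-0.063), CycG (-0.26), Not3 (-0.089), Uhg1 (-0.55), Uhg4 (-0.10), Uhg8 (-1.78), bnk (0.86), ctp (-0.016), eIF5 (-1.11), pAbp (-0.34), rdx (-0.13), snRNA:LU (0.47) and the Uhg list (-0.19). Among the same genes and lists it changed with the png50 input for CG11486 (-0.23), CG8507 (-0.22), CycG (-0.29), Uhg7 (1.47), Uhg8 (-0.86), eIF5 (-0.88) and pAbp (-0.15), and with the 1–2 hr input for CG31075 (0.017) and CG6597 (-0.23).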

Other observations

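Of 26 zygotic genes listed, 5 were members at 0–1 hr, with a median of -0.60. slam, needed for cellularization, had 12 FPKM in the input and 15.5 FPKM in the IP (binding -0.95). halo, a regulator of lipid droplet transport, had 5.50 and 14.5 FPKM (binding 0.09). bnk, also of cellularization, had 1.26 and 0.89 FPKM (binding -1.81 with a counting standard error of 0.60, and 0.86 with the eGFP-ME31B input), and sisA and zen lay at -0.60 and -0.34.

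Among the protein-coding genes above 0.5 FPKM in the IP only, the highest in the IP were CG9821 (0.41 FPKM in the input, 39.5 FPKM in the IP, 21.6 FPKM in the png50 input) and c(3)G, a protein of the meiotic synaptonemal complex (0.16, 26.3 and 23.2 FPKM). DCP2, the decapping enzyme, had 0.48, 8.84 and 71.7 FPKM in the same order. These genes were named after their values were seen.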
